A study of Homo sapiens with 9 samples.

Results

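The proteasome subunit genes were taken as every listed gene whose identifier maps to a symbol made of PSMA, PSMB, PSMC or PSMD and a number, which gave 39 of 61093 genes. They comprise 8 genes of the core alpha ring, 7 constitutive and 4 inducible or tissue-specific genes of the core beta ring, 6 ATPases, 3 other subunits of the regulatory particle's base, 8 lid subunits and 3 assembly chaperones that carry a PSMD name. The study sequenced RNA from cells labelled HepG2, a human hepatocellular line, in 9 libraries. There were 3 untreated controls, 3 libraries of cells given SKF-96365, an organic blocker of calcium entry that the series title presents as inhibiting the cation channel TRPV2, and 3 of cells given 2-APB, which it presents as the agonist. No dose, exposure time, vehicle or day is given, and all groups share the line and carry no stated genetic change. The 2-APB libraries carry ABP in their titles and TRPV2 in their column names, and they were placed by their treatment label. The labels do not say whether the libraries of a group are separate cultures, so a p-value here speaks of the scatter among these 9 libraries, which may be technical.

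The proteasome is the barrel-shaped protease that degrades most ubiquitin-tagged proteins in the cytosol and nucleus. Stacked alpha and beta rings form the core, whose beta subunits PSMB5, PSMB6 and PSMB7 cut peptides, and a regulatory particle at its ends binds ubiquitin chains, removes them, unfolds the protein with ATPases and feeds it into the core. Interferon induces PSMB8, PSMB9 and PSMB10, which replace the constitutive catalytic subunits in the immunoproteasome and change the peptides made for antigen presentation. When proteasome activity falls, the transcription factor NFE2L1 is cut by the protease DDI2 after NGLY1 removes its sugars, and with a small MAF partner it activates proteasome genes together.

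NFE2L1 and its relative NFE2L2 bind antioxidant response elements, and the factor NF-Y binds CCAAT boxes. Promoters of the members, 250 bases before to 50 after a start site, were therefore searched on both strands for TGACNNNGC, the core of the response element, and for CCAAT. RefSeq promoters of build GRCh38.p14 matched 34 of the 39 genes, with 41 promoters, and PSMA7, PSMB1, PSMB6, PSMB7 and PSMD4 had no entry. TGACNNNGC occurred in the promoters of 10 of the 34 genes (29.4%), against 16.1% of 27305 genes and 13.3% of 35116 promoters in the table. CCAAT occurred in 18 of the 34 (52.9%), against 39.7% of genes and 34.6% of promoters. The full promoters of 4 genes with a TGACNNNGC match are shown because they cover members of different roles and behaviour in these libraries: the constitutive PSMB3, the inducible PSMB9, the alpha ring PSMA4 and the lid subunit PSMD12. Capitals mark matches of either motif on either strand. PSMA4 has further promoters, with windows starting at 78540155 and 78540194, which held 0 matches of either motif and are not shown.
PSMB3, chr17:38752491-38752790, plus strand: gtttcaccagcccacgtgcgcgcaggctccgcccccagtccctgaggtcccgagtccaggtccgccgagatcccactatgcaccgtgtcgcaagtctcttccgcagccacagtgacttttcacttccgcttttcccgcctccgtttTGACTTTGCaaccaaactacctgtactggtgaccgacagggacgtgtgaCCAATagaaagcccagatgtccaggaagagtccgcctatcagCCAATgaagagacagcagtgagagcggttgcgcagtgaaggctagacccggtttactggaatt
PSMB9, chr6:32853942-32854241, plus strand: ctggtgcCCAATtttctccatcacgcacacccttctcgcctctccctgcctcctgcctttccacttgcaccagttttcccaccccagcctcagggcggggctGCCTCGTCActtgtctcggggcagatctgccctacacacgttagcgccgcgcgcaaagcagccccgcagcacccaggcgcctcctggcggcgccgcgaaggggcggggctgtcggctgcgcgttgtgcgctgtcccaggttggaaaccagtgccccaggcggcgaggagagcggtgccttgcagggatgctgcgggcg
PSMA4, chr15:78540536-78540835, plus strand: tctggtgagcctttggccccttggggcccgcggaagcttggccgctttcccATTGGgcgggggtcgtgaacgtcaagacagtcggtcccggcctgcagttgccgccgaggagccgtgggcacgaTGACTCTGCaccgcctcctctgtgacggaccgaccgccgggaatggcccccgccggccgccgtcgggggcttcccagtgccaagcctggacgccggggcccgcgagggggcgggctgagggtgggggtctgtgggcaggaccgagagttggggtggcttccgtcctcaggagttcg
PSMD12, chr17:67366528-67366827, minus strand: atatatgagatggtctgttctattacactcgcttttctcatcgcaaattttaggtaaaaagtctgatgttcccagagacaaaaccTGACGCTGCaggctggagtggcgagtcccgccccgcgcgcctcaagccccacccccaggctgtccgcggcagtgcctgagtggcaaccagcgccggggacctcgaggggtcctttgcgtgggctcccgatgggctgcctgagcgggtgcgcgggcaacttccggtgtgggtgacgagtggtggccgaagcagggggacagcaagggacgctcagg
The other 6 genes with a match held the following sites, each with up to 10 bases on either side and the match in capitals.
PSMC4, chr19:39971182-39971210, plus strand: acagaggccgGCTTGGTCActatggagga
PSMC5, chr17:63827654-63827682, plus strand: gaccggatctGCTGTGTCAgcgccgccct
PSMD1, chr2:231056896-231056916, plus strand: aggaggcgacTGACTGAGCag
PSMD3, chr17:39980760-39980788, plus strand: tcccctttgtTGACTCGGCcatcggcctg
PSMD3, chr17:39980830-39980856, plus strand: gtttgcagctGCTCCGTCAtcgtgcgg
PSMD5, chr9:120843038-120843066, minus strand: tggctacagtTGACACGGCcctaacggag
PSMD9, chr12:121888631-121888659, plus strand: cgctactcctGCCGGGTCAccacaggcgc
PSMD9, chr12:121888678-121888706, plus strand: cggcttccggTGACCCAGCtccgccctaa
A match describes letters in this window and is no evidence of binding, and an absent match says nothing about either factor.

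Libraries held 14786059 to 19026545 reads, and 6.90% to 8.04% of the signal came from mitochondrially encoded genes. The deposited values are gene counts divided by 1 size factor per library, here called normalized counts. Of the 39 genes, 37 passed the filter of at least 10 normalized counts in at least 3 libraries. PSMA8, the testis form of an alpha subunit, and PSMB11, the thymus form of a catalytic subunit, were listed at 0 in all 9 libraries. Markers of the labelled cell type were nearly absent: of 8 hepatocyte markers only SERPINA1 entered the tests, ALB did not exceed 11.8 normalized counts, and the 8 together took 12.8 to 31.7 CPM, a share of the library's reads. Leukocyte markers together took 2.31 to 5.21 CPM, with CD3E at 0, germ cell markers 0.57 to 1.31 with DAZL at 0, and thymic epithelium markers 0 to 0.32. Of these lists, only the leukocyte marker CD14 (35.5 to 81.6 normalized counts) and the germ cell marker SYCP3 (7.94 to 21.5) entered the tests. Some libraries stood nearer to another group than to their own. Across all tested genes, control 3 correlated at 0.988 and 0.986 with SKF-96365 2 and SKF-96365 3, but at 0.961 and 0.957 with control 1 and control 2. SKF-96365 1 correlated at 0.984 with control 1 and 0.988 with 2-APB 3, but at 0.972 and 0.971 with the other two SKF-96365 libraries. These correlations are across genes, which are not independent replicates. From the files, an exchange of the labels of control 3 and SKF-96365 1 cannot be told apart from a difference between replicates, and every group mean and fold change of control and SKF-96365 rests on the labels as given.

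Proteasome transcripts were lowest together in control 3, SKF-96365 2 and SKF-96365 3, across group labels. The 39 genes together took 0.525%, 0.484% and 0.365% of the signal in control 1 to 3, 0.478%, 0.347% and 0.362% with SKF-96365, and 0.454%, 0.442% and 0.493% with 2-APB. By group it averaged 0.458% ± 0.083 for control libraries, 0.396% ± 0.072 under SKF-96365 and 0.463% ± 0.027 under 2-APB (each SD of n = 3). All groups overlapped in this share, and the 2-APB libraries were the closest to each other. In bulk RNA, fewer cells of a kind and less RNA per cell cannot be told apart.

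**Figure D1:**
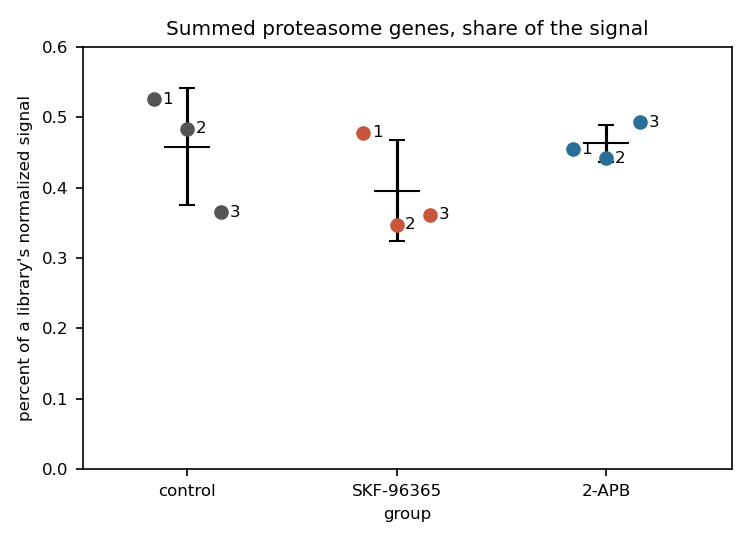
Summed proteasome genes as a percent of each library's normalized signal (vertical axis), by group (horizontal axis). Points are libraries with their number, and bars give the group mean and SD; control 3 (0.365%) lies beside SKF-96365 2 (0.347%) and SKF-96365 3 (0.362%), and SKF-96365 1 (0.478%) beside control 2 (0.484%).

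Gene by gene, 17.6% of all tested genes had their 3 lowest values in control 3, SKF-96365 2 and SKF-96365 3. Of the 12381 tested genes with a mean of at least 50 normalized counts, 2801 did. All 37 tested members had such a mean, and 27 of them had their 3 lowest values in those libraries. By role these were all 7 constitutive beta genes, all 6 ATPases, 6 of 8 lid genes, 5 of 7 alpha genes, 2 of 3 base genes, 1 of 3 chaperones and none of the 3 inducible beta genes. The same 3 libraries each had 34 of the 37 members below the gene's own mean over the 9 libraries, where 49.0% to 49.8% of all tested genes lay below theirs. The lowest library was SKF-96365 2 for 24 members, and the highest was control 1 for 18. The sum of the cycling markers was lowest in the same 3 libraries. MKI67, TOP2A, MCM2, MCM5 and CDC6 together took 1219, 1269 and 1296 CPM in control 3, SKF-96365 2 and SKF-96365 3. The other 6 libraries had 1464 to 2385 CPM. Gene by gene, MKI67, MCM2, MCM5 and CDC6 had their 3 lowest values there, but TOP2A did not. TOP2A had 11898 normalized counts in SKF-96365 1, below 12129 in SKF-96365 2 and 13097 in SKF-96365 3. The part of the cycling markers in the proteasome values was not tested.

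**Figure D2:**
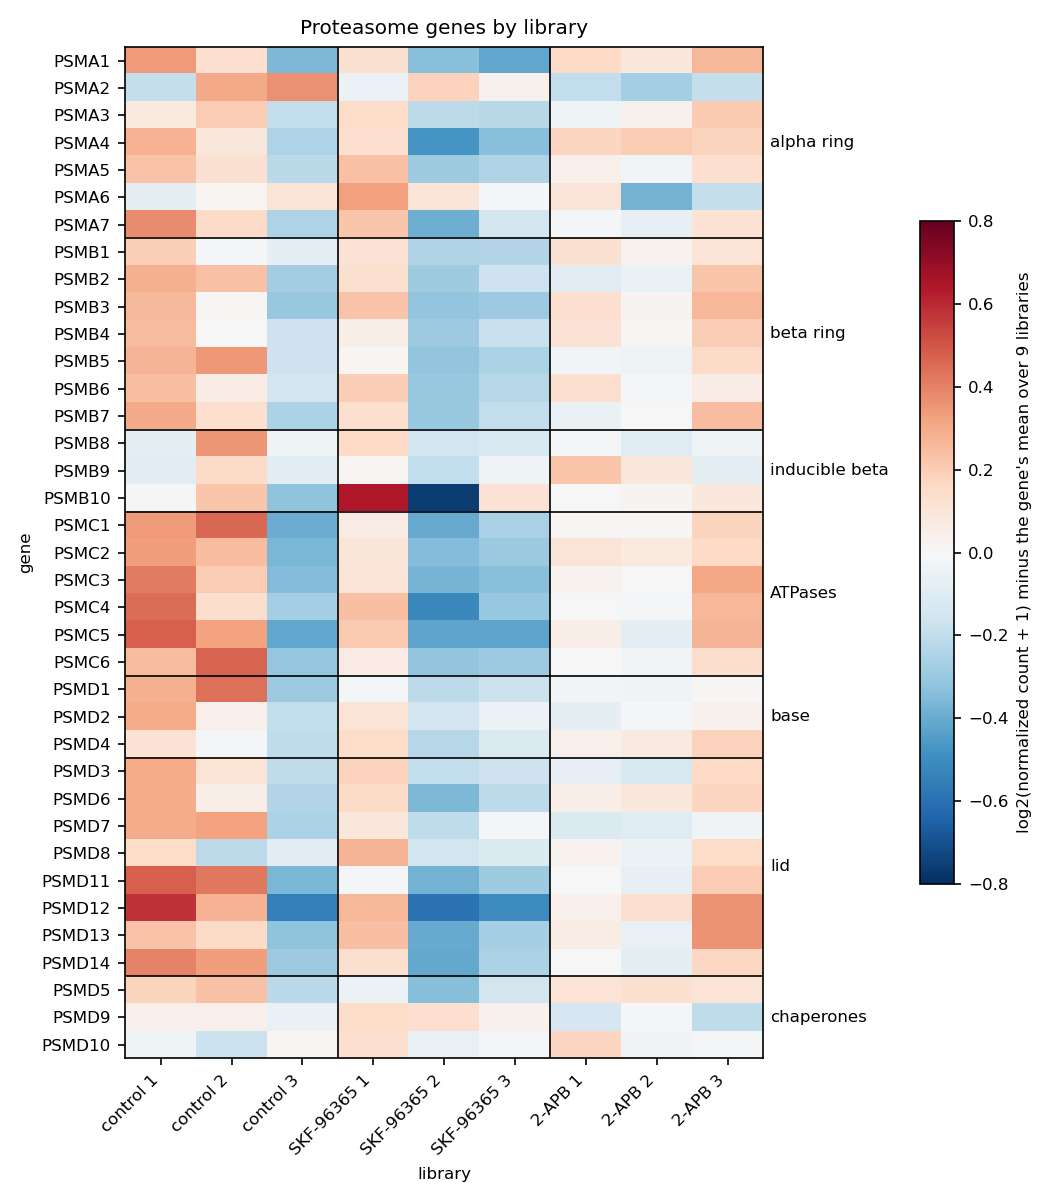
Heat map of the 37 tested proteasome genes (rows, ordered by role) in 9 libraries (columns, by group), coloured by the log2 difference from the gene's mean over the libraries. Control 3, SKF-96365 2 and SKF-96365 3 are blue in most rows, while PSMA2, PSMA6, PSMD9 and PSMD10 depart from this pattern.

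The alpha ring opens and closes the channel into the core. PSMA4 had 3668, 3222 and 2540.0 normalized counts in control 1 to 3, 3313, 2178 and 2392 with SKF-96365, and 3402, 3474 and 3414 with 2-APB. Its lowest values were those of SKF-96365 2, SKF-96365 3 and control 3, and the 3 libraries with 2-APB all lay above the 3 with SKF-96365. PSMA7 had 3406, 2917 and 2210.3 in the control libraries, 3056, 2002 and 2374 in the SKF-96365 libraries, and 2590.4, 2502 and 2842 in the 2-APB libraries. PSMA1 stood lower, at 475, 411 and 292 in the control libraries, 408, 297 and 281 in the SKF-96365 libraries, and 418, 397 and 449.6 in the 2-APB libraries, lowest in the same 3 libraries. PSMA3 and PSMA5 had means of 2066 and 2286 normalized counts and were also lowest in those 3 libraries.

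PSMA2 and PSMA6 did not follow them. PSMA2 had 47.4, 66.9 and 69.9 in control, 52.4, 61.7 and 55.6 under SKF-96365, and 47.1, 44.7 and 47.3 under 2-APB, so its 2-APB libraries were the lowest of the 9, with control 1 at nearly the same level. PSMA6 had 121, 129 and 138 in control, 159.9, 137 and 126 under SKF-96365, and 137, 97.9 and 111 under 2-APB, with the groups overlapping. Both are low for core subunits, and their values are uncertain: in GENCODE 29, 52.5% of the exon length of PSMA2 and 63.9% of that of PSMA6 are shared on the same strand with another annotated gene, AC010132.3 and AL121594.1, and the counting method could split or drop such reads. PSMA1 shares 35.7% of its exon length in the same way, with AC018523.2.

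The constitutive beta ring genes all had the same 3 lowest libraries. PSMB5, the chymotrypsin-like catalytic subunit, had 2369.8, 2498 and 1747 normalized counts in control 1 to 3, 1986, 1578 and 1648 with SKF-96365, and 1933, 1911 and 2186 with 2-APB. Control 1 and control 2 were its highest libraries, and control 3 fell among the SKF-96365 libraries. PSMB6, the caspase-like subunit, had 1729, 1525 and 1321 in the control libraries, 1676, 1182 and 1247 in the SKF-96365 libraries, and 1603, 1446 and 1521 in the 2-APB libraries. PSMB7, the trypsin-like subunit, had 3080.1, 2744 and 2094 in the control libraries, 2747, 2026 and 2184 in the SKF-96365 libraries, and 2411, 2491 and 2963 in the 2-APB libraries. For both, SKF-96365 1 stood with the high controls and control 3 with the other SKF-96365 libraries. The structural subunits PSMB1, PSMB2, PSMB3 and PSMB4 had means of 2007, 2710.1, 1985 and 2929.7 normalized counts. PSMB1 varied least of these, by 1.35-fold between the lowest and the highest library.

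None of the inducible catalytic genes had those 3 libraries as its 3 lowest, though SKF-96365 2 was the lowest library of PSMB8, PSMB9 and PSMB10. PSMB8, which takes the place of PSMB5, had 886, 1191 and 910.0 normalized counts in control 1 to 3, 1039, 841 and 856 with SKF-96365, and 925, 871 and 907 with 2-APB. Control 2 was its highest library and the other 8 lay between 841 and 1039. PSMB9, which takes the place of PSMB6 and shares a bidirectional promoter region with TAP1, had 497, 588 and 499 in the control libraries, 535, 461 and 517 in the SKF-96365 libraries, and 617, 562 and 499.9 in the 2-APB libraries, with no group apart from the others. PSMB10, which takes the place of PSMB7, had 66.3, 78.1 and 53.2 in the control libraries, 105, 39.1 and 72.4 in the SKF-96365 libraries, and 66.9, 67.8 and 71 in the 2-APB libraries. Its spread was the widest of all members, with the highest library 2.68 times the lowest, at a mean of 68.8 normalized counts. Its values are uncertain as well, since 30.7% of its exon length is shared with AC040162.1 on the same strand.

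Per kilobase of exon in GENCODE 29, PSMB8 stood at 0.353, 0.451 and 0.492 of PSMB5 in control 1 to 3, at 0.495, 0.504 and 0.491 with SKF-96365 and at 0.453, 0.431 and 0.392 with 2-APB. This ratio was 0.432 ± 0.071, 0.497 ± 0.006 and 0.425 ± 0.031 (SD, n = 3), in the same group order. It was near 0.49 to 0.50 in all SKF-96365 libraries and in control 3, so control and SKF-96365 overlapped. All 2-APB libraries lay below all SKF-96365 libraries in this ratio, and 2-APB and control overlapped. The ratio was not tested. PSMB9 stood at 0.272 to 0.392 of PSMB6 per length over the 9 libraries, and PSMB10 at 0.016 to 0.031 of PSMB7. Neither ratio separated the groups.

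**Figure D3:**
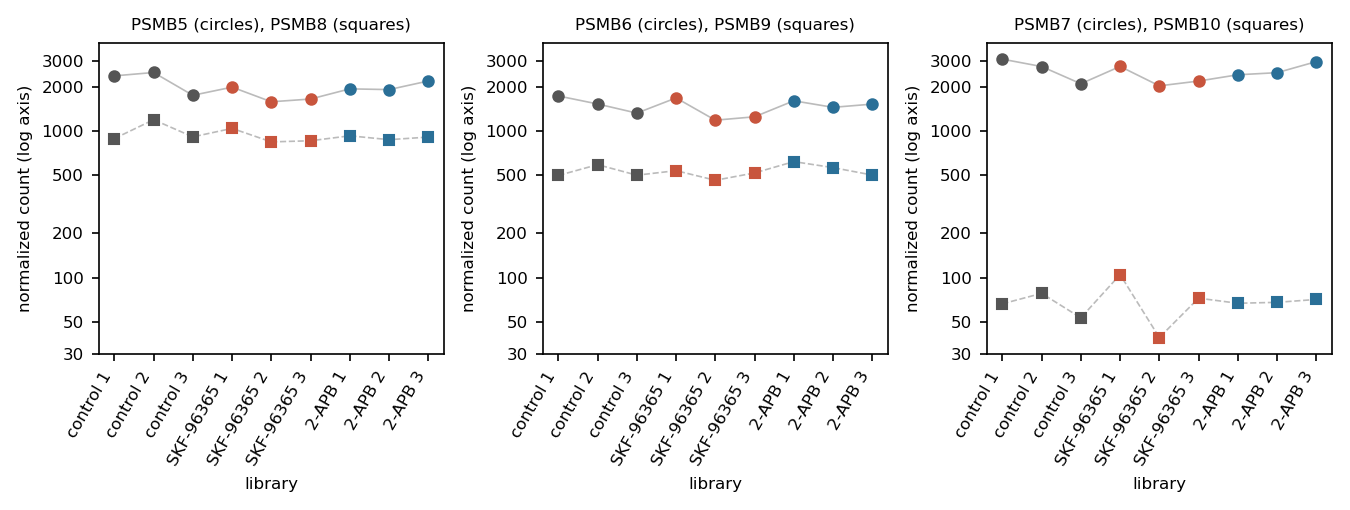
Normalized counts on a log axis (vertical) in the 9 libraries (horizontal) for each constitutive catalytic subunit (circles) and its inducible counterpart (squares), coloured by group. The 3 lowest libraries of PSMB5, PSMB6 and PSMB7 are SKF-96365 2, SKF-96365 3 and control 3, which holds for none of their counterparts. From lowest to highest library, PSMB5, PSMB6 and PSMB7 range over 1.58-fold, 1.46-fold and 1.52-fold. PSMB8, PSMB9 and PSMB10 range over 1.42-fold, 1.34-fold and 2.68-fold.

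The 6 ATPases, which form the ring that unfolds substrates, had the same 3 lowest libraries in every gene. PSMC5 had 3280.0, 2948 and 1766 normalized counts in control 1 to 3, 2732, 1764 and 1759 with SKF-96365, and 2445, 2242 and 2852 with 2-APB. Its 3 lowest libraries lay within 1759 to 1766, well under the next at 2242. PSMC4 had 1665, 1349 and 1014 in the control libraries, 1447, 856 and 991 in the SKF-96365 libraries, and 1227, 1214 and 1467 in the 2-APB libraries. PSMC1 had 1547, 1681 and 929 in the control libraries, 1277, 924 and 1021 in the SKF-96365 libraries, and 1232, 1229 and 1383 in the 2-APB libraries. PSMC2, PSMC3 and PSMC6 had means of 1846, 2235 and 1644 normalized counts. Over the 6 genes the highest library was 1.62 to 1.94 times the lowest. For PSMC1, 82.1% of the exon length overlaps NRDE2 on the other strand, and for PSMC5 16.2% overlaps FTSJ3, so without a stated strand setting these reads cannot be told apart.

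PSMD1 and PSMD2, the large scaffold subunits of the base, were the members with the highest normalized counts. PSMD1 had 5855, 6517 and 3913 normalized counts in control 1 to 3, 4758, 4157 and 4256 with SKF-96365, and 4718, 4699 and 4829 with 2-APB. Control 1 and control 2 stood well above the other 7 libraries, which lay between 3913 and 4829. PSMD2 had 5609.8, 4692 and 3969 in the control libraries, 4910.1, 4097 and 4408 in the SKF-96365 libraries, and 4339, 4517 and 4674 in the 2-APB libraries. PSMD4, a receptor for ubiquitin chains, had 2975, 2729 and 2391 in the control libraries, 3041, 2349.9 and 2538 in the SKF-96365 libraries, and 2826, 2895 and 3119 in the 2-APB libraries, a 1.33-fold range.

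The lid holds PSMD14, the deubiquitinase that cuts ubiquitin chains off the substrate. PSMD14 had 3861, 3691 and 2397 normalized counts in control 1 to 3, 3201, 2204 and 2457 with SKF-96365, and 2931, 2792 and 3288 with 2-APB. PSMD12, a structural lid subunit, had 3269, 2657 and 1499 normalized counts in control 1 to 3, 2633, 1455 and 1548 with SKF-96365, and 2254, 2401 and 2807 with 2-APB. Its 3 lowest libraries lay between 1455 and 1548 and the other 6 at 2254 or above, a 2.25-fold range that was the second widest among members. PSMD11, another structural lid subunit, had 4224, 4069 and 2352 in the control libraries, 3010.2, 2339 and 2496 in the SKF-96365 libraries, and 3034, 2900.2 and 3501 in the 2-APB libraries. PSMD13 had 3118, 2964 and 2129.9 in the control libraries, 3151, 2015 and 2215 in the SKF-96365 libraries, and 2772, 2558 and 3414 in the 2-APB libraries, with 2-APB 3 the highest. PSMD3 and PSMD6 had means of 4527 and 1735 normalized counts. PSMD7, the inactive partner of PSMD14, had 1809, 1842 and 1235 in control, 1564, 1279 and 1454 under SKF-96365, and 1357, 1378 and 1439.6 under 2-APB, and 42.4% of its exon length overlaps AC009120.2 on the other strand. PSMD8 had its lowest value in control 2 and its highest in SKF-96365 1, at 1534 and 2145.

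The chaperones that assemble the base did not share one pattern. PSMD5 had 1250.1, 1300.4 and 951 normalized counts in control 1 to 3, 1069, 874 and 997 with SKF-96365, and 1194, 1207 and 1192 with 2-APB, low in the same 3 libraries as the subunits, with the 2-APB libraries above all 3 with SKF-96365. PSMD9 had 241, 241 and 226 in the control libraries, 260.3, 258 and 240.1 in the SKF-96365 libraries, and 214, 233 and 204 in the 2-APB libraries, so that its 2-APB libraries were below all SKF-96365 libraries. PSMD10, also known as gankyrin, had 778, 708 and 806 in the control libraries, 873, 764 and 788 in the SKF-96365 libraries, and 897, 781 and 792 in the 2-APB libraries. PSMD9 and PSMD10 varied least of all members, with the highest library 1.28 and 1.27 times the lowest. PSMD9 shares 29.7% of its exon length with other genes on the same strand, 15.7% with WDR66.

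The typical spread of a member over the libraries was close to that of other genes. The median ratio of highest to lowest library was 1.57 over the 37 members and 1.58 over the 12381 tested genes with a mean of at least 50 normalized counts. Medians by role were 1.77 for the ATPases, 1.63 for the alpha ring, 1.63 for the lid, 1.49 for the constitutive beta ring, 1.42 for the inducible genes, 1.41 for the base and 1.28 for the chaperones. Levels per kilobase of exon differed far more between genes than between libraries. PSMB4 was the highest member at 3039 normalized counts per kilobase, followed by PSMB7 at 2578 and PSMB3 at 2568. The constitutive beta genes had a median of 2162, the base 1453, the lid 857, the ATPases 768, the inducible genes 576, the alpha ring 504 and the chaperones 324. PSMA2 was the lowest tested member at 36.8, followed by PSMB10 at 56.5, both with shared exons. These orders depend on the annotated exon length, which may not match the transcripts present.

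The labelled groups were compared by limma, fitted to log2(normalized count + 1) for 17492 genes, with Benjamini-Hochberg adjustment over all of them and a threshold of 0.05. SKF-96365 and 2-APB were each set against the same 3 controls, so these comparisons share libraries. No member and no other gene passed in any of the 3 comparisons (0% of the genes tested). At an unadjusted p under 0.05, 4% of all genes passed for SKF-96365 against control, 2.8% for 2-APB against control and 7.3% for 2-APB against SKF-96365, and 0, 0 and 1 of the 37 members. All fold changes below are on the log2 scale of this test.

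With SKF-96365, 32 of 37 members had a negative log2 fold change and 5 a positive one, with a median of -0.17, against -0.0043 over all tested genes. No member was called, and the smallest adjusted p was 0.789. The 6 ATPases were all negative with a median of -0.31, and the 7 constitutive beta genes all negative with a median of -0.17. Lid genes had 7 of 8 negative (median -0.17), alpha genes 6 of 7 (median -0.14), base genes 3 of 3 (median -0.079) and inducible genes 2 of 3 (median -0.064). Chaperones had 1 of 3 negative and a median of 0.081. In no member were the 3 SKF-96365 libraries all above or all below the 3 controls, as they were for 3.26% of all genes (higher) and 2.94% (lower).

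The 3 members with the smallest p were PSMB5, PSMD11 and PSMD5. PSMB5 averaged 2205 ± 402 over the controls and 1737 ± 218 under SKF-96365 (SD, n = 3), a log2 fold change of -0.33 (SE 0.15, adjusted p = 0.789). PSMD11 averaged 3548 ± 1039 and 2615 ± 351, a log2 fold change of -0.40 (SE 0.21, adjusted p = 0.789). PSMD5 had -0.24 (SE 0.14, adjusted p = 0.789). The deubiquitinase PSMD14 had -0.33 (SE 0.20, adjusted p = 0.789), and the ubiquitin receptor PSMD4 -0.033 (SE 0.13, adjusted p = 0.946). PSMB6 and PSMB7 had -0.16 (SE 0.15, adjusted p = 0.792) and -0.18 (SE 0.17, adjusted p = 0.793). Their inducible counterparts PSMB8, PSMB9 and PSMB10 had -0.12 (SE 0.14, adjusted p = 0.822), -0.064 (SE 0.13, adjusted p = 0.889) and 0.036 (SE 0.33, adjusted p = 0.976). None of these differences passed adjustment, and each of their 95% intervals held values of both signs.

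With 2-APB against control, 20 members had a positive and 17 a negative log2 fold change, with a median of 0.0061, and no adjusted p was below 0.9995. PSMA2 alone had its groups apart, with all 2-APB libraries lower but 2-APB 3 barely below control 1, where 3.61% of all genes were apart in the higher and 3.97% in the lower direction. Its log2 fold change was -0.38 (SE 0.22, adjusted p = 0.9995), and those of PSMD7 and PSMD4, next by p, were -0.20 (SE 0.16, adjusted p = 0.9995) and 0.13 (SE 0.13, adjusted p = 0.9995). PSMB5, PSMB6 and PSMB7 had -0.12, 0.0061 and 0.0026, with SE of 0.15, 0.15 and 0.17. PSMB8, PSMB9 and PSMB10 had -0.13, 0.083 and 0.074, with SE of 0.14, 0.13 and 0.33. PSMD14 had -0.11 (SE 0.20). The median over members changed sign with the libraries used, from -0.16 without control 3 to 0.099 without control 1.

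Between the compounds, 2-APB against SKF-96365, 32 members had a positive and 5 a negative log2 fold change, with a median of 0.18 against 0.0073 over all tested genes. PSMA4 was the only member with an unadjusted p under 0.05. It averaged 2628 ± 603 with SKF-96365 and 3429.7 ± 38.7 with the other compound (SD, n = 3), a log2 fold change of 0.41 (SE 0.17, unadjusted p = 0.0408, adjusted p = 0.684). PSMD5 had 0.29 (SE 0.14, adjusted p = 0.694) and PSMA1 0.38 (SE 0.20, adjusted p = 0.698). Groups were apart for 4 members, PSMA4 and PSMD5 higher with 2-APB and PSMA2 and PSMD9 lower, against 8.21% (higher) and 8.79% (lower) of all genes. The 7 constitutive beta genes were all positive with a median of 0.21, and the 6 ATPases all positive with a median of 0.29. PSMB5, PSMB6 and PSMB7 had 0.21, 0.17 and 0.18, and PSMD14 and PSMD4 0.21 and 0.16. PSMB8, PSMB9 and PSMB10 had -0.011, 0.15 and 0.037, with SE of 0.14, 0.13 and 0.33.

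**Figure D4:**
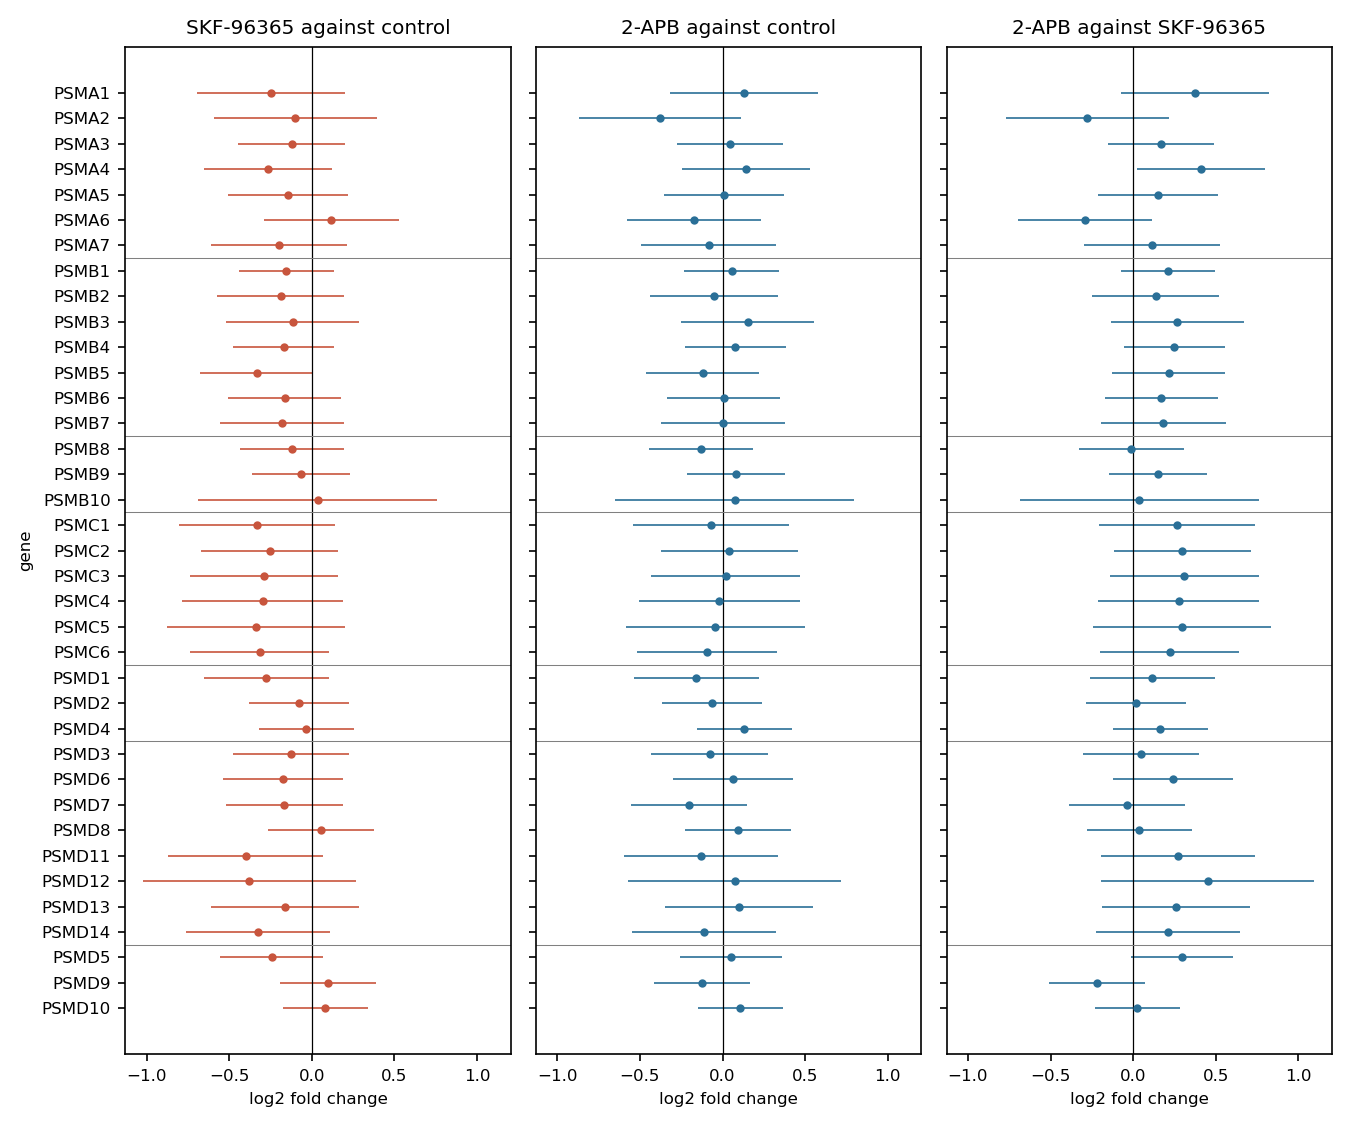
Log2 fold change (horizontal axis) of each tested proteasome gene (vertical axis, grouped by role) in the 3 comparisons; points are limma estimates and bars their 95% intervals. For SKF-96365 against control 32 of 37 points lie left of 0, and PSMA4 for 2-APB against SKF-96365 is the single interval clear of 0 before adjustment.

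Leaving out control 3 and SKF-96365 1 changed these counts. Both were picked after their values were seen, because they stood with another group. By this choice the libraries within control and within SKF-96365 became more alike and these groups further apart, so the p-values are too small. With the other 7 libraries, 27 of 37 members were lower and none higher with SKF-96365 than in control at an adjusted limma p under 0.05, where 14.5% of all genes were lower and 13.1% higher. The median over members was -0.45, compared with -0.17 in all 9 libraries. The largest differences were in PSMD12, -0.97 (SE 0.14), PSMC5, -0.82 (SE 0.12), and PSMD11, -0.78 (SE 0.11). All 6 ATPases and all 7 constitutive beta genes were among the 27, together with PSMD14 at -0.70 (SE 0.11) and PSMB5 at -0.59 (SE 0.10). The 10 members not called were PSMA2, PSMA6, PSMB8, PSMB9, PSMB10, PSMD2, PSMD4, PSMD8, PSMD9 and PSMD10. For 2-APB against control no member and no gene was called in either direction (0% and 0%), with a median of -0.16. For 2-APB against SKF-96365, 16 members were higher and none lower, where 6.44% of genes were higher and 6.61% lower. PSMD12 at 0.72 (SE 0.12) and PSMA4 at 0.59 (SE 0.093) had the largest differences. Leaving out control 3 alone gave no called member and a median of -0.33 for SKF-96365 against control, and leaving out SKF-96365 1 alone gave none and -0.31.

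Genes that work with the proteasome were described from lists of the pathway, and none of them passed the test in any comparison of the 9 libraries. The subunits outside the symbol pattern are ADRM1, a ubiquitin receptor of the base, and SEM1, a small lid subunit. ADRM1 had 1631, 1783 and 1159 normalized counts in control 1 to 3, 1454, 964 and 986 with SKF-96365, and 1298, 1274 and 1628 with 2-APB, low in the same 3 libraries as most members. Its log2 fold change with SKF-96365 was -0.43 (SE 0.20, adjusted p = 0.789). SEM1 had 1195, 962 and 1005 in the control libraries, 1116, 874 and 959 in the SKF-96365 libraries, and 962, 1043 and 1098 in the 2-APB libraries, a narrower range.

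Of the 5 genes for activators and the inhibitor, all 5 were negative with SKF-96365 (median -0.099) and none was called. PSME1 and PSME2 encode the interferon-inducible activator of the cytosol. PSME1 had 949, 1099 and 1101 in the control libraries, 1055, 1002 and 993 in the SKF-96365 libraries, and 1044, 1037 and 1052 in the 2-APB libraries, with hardly any difference between libraries. PSME2 had 1128, 1262 and 918 in the control libraries, 1295, 859 and 935 in the SKF-96365 libraries, and 1132, 1143 and 1254 in the 2-APB libraries. PSME3, the nuclear activator, had 4583, 4199 and 2309 in the control libraries, 4223, 2214 and 2354 in the SKF-96365 libraries, and 3106, 2978 and 4154 in the 2-APB libraries. Its values in control 3, SKF-96365 2 and SKF-96365 3 lay between 2214 and 2354, and those of the other 6 libraries at 2978 or above. The log2 fold change of PSME3 with SKF-96365 was -0.34 (SE 0.30, adjusted p = 0.792), and that of PSME2 was 0.10 (SE 0.17, adjusted p = 0.9995) with 2-APB and 0.21 (SE 0.17, adjusted p = 0.743) between the compounds.

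The 6 assembly factors of the core and base had 4 negative values with SKF-96365 (median -0.18) and none called. POMP, which matures the catalytic core, had 1430.1, 1129 and 804 in the control libraries, 1414, 702 and 766 in the SKF-96365 libraries, and 1062, 939.5 and 1445 in the 2-APB libraries. PAAF1, a chaperone of the ATPases, had the opposite sign, with 267, 242 and 364 in the control libraries, 372, 327 and 357 in the SKF-96365 libraries, and 290.5, 299 and 321 in the 2-APB libraries and a log2 fold change of 0.29 (SE 0.16, adjusted p = 0.789) for SKF-96365. PSMG3, a chaperone of the alpha ring, had -0.26 (SE 0.30, adjusted p = 0.9995) with 2-APB. Among 12 enzymes and shuttles that dock on the proteasome, the shuttle RAD23B had a log2 fold change of -0.34 (SE 0.15, unadjusted p = 0.0382, adjusted p = 0.789) with SKF-96365. UBQLN1, another shuttle, had -0.17 (SE 0.10, adjusted p = 0.9995) with 2-APB against control and -0.25 (SE 0.10, unadjusted p = 0.036, adjusted p = 0.684) against SKF-96365. Of the 10 ubiquitin and VCP genes, UFD1, a cofactor of the segregase VCP, had -0.30 (SE 0.16, adjusted p = 0.789) with SKF-96365, and NPLOC4, its partner, had -0.22 (SE 0.14, adjusted p = 0.9995) with 2-APB.

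The 7 genes that control proteasome transcription had a median log2 deviation from their own means of 0.17 in control 3, where that of the members was -0.25. The same medians were 0.15 against -0.31 in SKF-96365 2, then 0.16 against -0.21 for the library SKF-96365 3. Opposite signs did not hold in every library. In SKF-96365 1 both medians were positive, at 0.056 against 0.13, and in 2-APB 2 both were negative, at -0.16 against -0.013. In control 1 and control 2 the medians were -0.037 against 0.27 and -0.028 against 0.15. In 2-APB 1 and 2-APB 3 they were -0.16 against 0.027 and -0.084 against 0.16. NFE2L1 had 4773, 4941 and 5696 normalized counts in control 1 to 3, 4690.0, 5954 and 5852 with SKF-96365, and 4523, 4523 and 4767 with 2-APB. Its 3 highest values were in control 3, SKF-96365 2 and SKF-96365 3. The small MAF genes, partners of NFE2L1, did not pass adjustment either. MAFF had 502, 417 and 652 in the control libraries, 707, 649 and 627 in the SKF-96365 libraries, and 284, 277 and 525 in the 2-APB libraries, a log2 fold change of -0.93 (SE 0.25, unadjusted p = 0.00345, adjusted p = 0.684) for 2-APB against SKF-96365 and 0.36 (SE 0.25, adjusted p = 0.789) for SKF-96365 against control. MAFG had 2092, 2126 and 2221 in the control libraries, 2049, 2172 and 2019 in the SKF-96365 libraries, and 1472, 1407 and 1978 in the 2-APB libraries, a log2 fold change of -0.42 (SE 0.13, unadjusted p = 0.00998, adjusted p = 0.9995) for 2-APB against control. For 2-APB against SKF-96365 all 7 genes were negative (median -0.24), with the groups apart for 4 of them, where 8.79% of all tested genes were apart in the lower direction, and none was called. Of the members with a RefSeq promoter, TGACNNNGC occurred in 8 of the 22 that were lowest in those 3 libraries and in 2 of the 10 other tested members, and CCAAT in 12 of the 22 and 5 of the 10.

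The 12 interferon and antigen processing genes, which include the peptide transporter and class I genes, had 9 positive values with SKF-96365 (median 0.10) and none called. TAPBP, which loads peptides onto class I molecules, had 0.25 (SE 0.20, adjusted p = 0.789) with SKF-96365, and the class I gene HLA-B had -0.69 (SE 0.27, unadjusted p = 0.031, adjusted p = 0.684) between the compounds. HLA-B had 1262, 2235 and 2696 in the control libraries, 1751, 2809 and 2965 in the SKF-96365 libraries, and 1693, 1472 and 1404 in the 2-APB libraries. Its 3 highest libraries were SKF-96365 3, SKF-96365 2 and control 3. Class I genes are near-identical to one another, so the counting could split their reads.

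**Figure D5:**
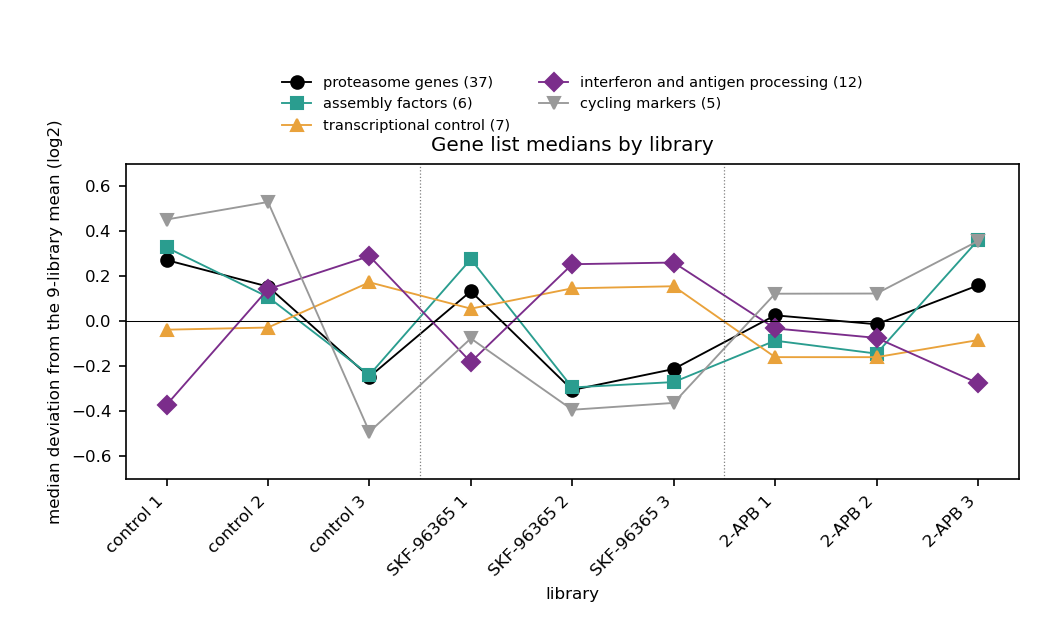
Median log2 deviation from the 9-library mean (vertical axis) of 5 gene lists in each library (horizontal axis), with the number of tested genes in brackets. In control 3, SKF-96365 2 and SKF-96365 3 the proteasome genes (-0.25, -0.31 and -0.21), assembly factors and cycling markers lie below 0, and the transcriptional control and interferon lists above it.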

How the data were processed

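Per the labels' protocols, total RNA went into libraries made with the SMARTer kit for mRNA. The deposited values are a normalized signal: gene counts that the authors scaled with DESeq2, per the submitters' processing notes, which give no version. Within each library all values were whole multiples of 1 step, within 0.001 of a read, and whole reads were recovered for 8 libraries. The step of SKF-96365 3 was 0.992, too near 1 to be certain, so its depth is not certain either. The aligner, the counting tool and its strand setting, and the genome build are not given in the sources used here. Precision is limited by 3 libraries per group, and PCR duplicates were not told apart by molecular identifiers.

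Symbols came from the gene name table for 60463 identifiers and from GENCODE 29 for 130 more, and 36 pseudogene names were left out of the members. Members, roles and gene lists were chosen with earlier results of these data known. limma 3.58.1 in R 4.3.3 fitted log2(value + 1) with an intensity trend to 17492 genes with at least 10 in at least 3 libraries, all 9 libraries sharing 1 variance per gene. It gave 3 two-sided contrasts and an F test, called at a Benjamini-Hochberg adjusted p under 0.05. The scripts were tested on simulated data. Fold changes are printed for the 3 members with the smallest p per contrast, for PSMB5 to PSMB10, PSMD14 and PSMD4, and for the gene with the smallest p of each pathway list, of which 2 are not reported here. Members singled out in the fit of 7 libraries were chosen after their values were seen.

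Alternatives changed the pseudocount (0.5 or 5), the filter (none, or a mean of 50 or more), the scaling (quantile, upper-quartile, equal totals), the variance prior (no trend, robust) or the libraries fitted (only the compared groups, or 1 library fewer). Others were a block for the replicate number, edgeR 4.0.16 and DESeq2 1.42.0 on recovered reads of 8 libraries, and, added after the data were seen, leaving out control 3 and SKF-96365 1.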

Additional observations from a re-analysis of the deposited data

How the results depend on the processing

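For SKF-96365 against control, the median log2 fold change of the members was negative in every alternative run, from -0.086 without control 1 to -0.33 without control 3, and -0.45 without control 3 and SKF-96365 1. For 2-APB against SKF-96365 it stayed positive, from 0.096 without SKF-96365 2 to 0.33 without SKF-96365 1. For 2-APB against control it changed sign, from -0.16 without control 3 to 0.099 without control 1, and was -0.0012 with edgeR and -0.0020 with DESeq2. Member calls appeared in 1 alternative only, without control 3 and SKF-96365 1: 27 for SKF-96365 against control and 16 for 2-APB against SKF-96365. Over all genes that fit called 4823 and 2283, and 3547 by the F test. With 1 library left out, calls ranged from 0 to 173 for SKF-96365 against control, 0 to 4 for 2-APB against SKF-96365 and 0 to 5 by the F test, the highest of each without control 3. DESeq2 called 2 genes and 1 gene in those contrasts, and the fit of only the 2 groups compared called 4 for the latter. The causes were not tested. Whether the replicate numbers pair the libraries is not stated. Same-number correlations ran from -0.35 to 0.50, but libraries of different number were not compared in this way, so these values cannot decide it. The fit with the replicate block called 0 members and 0 genes, with 717, 431 and 1259 genes at an unadjusted p under 0.05.

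Small named differences changed sign, and none of these was called. For SKF-96365 against control, PSMB10 was -0.033 with quantile normalization and -0.43 without both libraries, and PSMD4 was 0.0062 with quantile normalization, 0.0082 with edgeR and 0.004 with DESeq2. For 2-APB against control, the values without both libraries were -0.093 for PSMB6, -0.15 for PSMB7, -0.069 for PSMB10 and -0.022 for PSME2, and PSMB7 was -0.0039 with edgeR and -0.0043 with DESeq2. For 2-APB against SKF-96365, PSMB8 was 0.042 at equal totals and 0.086 without both libraries, and PSMB10 was -0.078 with edgeR and -0.075 with DESeq2. With 1 library left out, SKF-96365 against control ranged over -0.22 to 0.016 for PSMB8, -0.11 to 0.016 for PSMB9, -0.29 to 0.42 for PSMB10 and -0.14 to 0.048 for PSMD4. The ranges for 2-APB against control were -0.093 to 0.10 for PSMB6, -0.15 to 0.12 for PSMB7, -0.21 to 0.0046 for PSMB8, -0.069 to 0.20 for PSMB10, -0.33 to 0.011 for PSMD14, -0.29 to 0.017 for ADRM1 and -0.022 to 0.21 for PSME2. Those for 2-APB against SKF-96365 were -0.067 to 0.086 for PSMB8 and -0.34 to 0.36 for PSMB10. A fit that leaves 2 libraries in a group takes their spread from all groups.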
